A study of Mus musculus with 15 samples.

Results

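Nim1k, Spry3 and Tagap encode 3 regulators of signalling inside the cell, and their messenger RNAs were followed here in mouse brain across the ages of an Alzheimer's disease model. The genes were chosen by their measured differences between the groups of this study, and every probe whose RefSeq transcript belongs to one of them was taken. This gave 3 probes, 1 for each gene, out of 59575 features measured, of which 115 probes carry a gene symbol. All 3 passed the filter on dim probes, which 48298 features passed. Because the group levels chose the genes, differences between WT and the ages, and between ages, are given as a description with their errors and with no test.

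The arrays measured total RNA of brain from mice of C57BL background, labelled with Cy3 and hybridised 1 sample to an array. The control group was WT, labelled wild type. The other groups were APP/PS1 mice, a transgenic mouse model of Alzheimer's disease, at 1, 3, 6 and 9 months of age. No age is labelled for WT, while the series' design text speaks of age-matched controls, so no difference from WT separates age from genotype. The transgenic line, its promoter and any pooling of animals are not given in the sources used here. The design text speaks of 3 mice to an age, but the near-identical arrays described next do not show that each array was a separate mouse, and any p-value measures only the spread between these samples.

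Scanner files of 14 arrays were used, 2 of WT and 3 of each age. The titles do not tell replicates of a group apart, and the numbers used here only name samples in the order they are listed. Replicates 2 and 3 at 1, 3 and 6 months behaved as near-identical arrays, because the deviations of their negative control spots had r values of 0.80 to 0.83, while the remaining 88 pairs of arrays reached no more than 0.24. Each such pair was averaged and counted as 1 sample, which left 11 samples, 2 each of WT and of 1, 3 and 6 months and 3 at 9 months. The 75th percentile of signal ran from 384 to 566 intensity units over the arrays, and the small number of arrays limits the precision of every value. The 3 arrays at 9 months were scanned at 354 V, a setting used for no other group, so scan setting and age cannot be told apart there. A setting of 355 V was used for the third replicate of 1, 3 and 6 months, and 356 V for WT and the remaining arrays. The genotype labels were not checked here, and none of the 25 markers of 8 brain and blood cell types had a named probe. In bulk tissue, fewer cells of a type and less RNA per cell cannot be told apart.

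Nim1k is a serine/threonine kinase of the family related to AMP-activated protein kinase, several members of which link cell energy and polarity to growth. Spry3 belongs to the Sprouty proteins, which are induced by growth factor signals and damp receptor tyrosine kinases such as the FGF receptors upstream of Ras and ERK. Tagap is a GTPase-activating protein that was named for its induction in activated T cells and is best known from lymphocytes and from variants linked to autoimmune disease. The 3 proteins act at different places, a kinase, an inhibitor of receptor signalling and a switch-off factor of GTPases, and no common pathway is implied by setting them side by side. Lists of 18 AMPK-related kinases and their partners, 20 genes of Sprouty and growth factor signalling and 16 genes of GTPase regulation and T cell activation were looked up as well. None of these 54 genes had a probe with a symbol on the array, so no pathway count can be given.

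The sequence just upstream of each transcript is shown as the regulatory sequence closest to what the probes measured, and the RefSeq promoter table (assembly GRCm38.p6) holds it for 2 of the 3 genes, Nim1k and Tagap. The 250 bases before the start are given 5′ to 3′ on the strand of the gene, with matches to 7 searched motifs in capitals. The window of Nim1k lies at chr13:119755883-119756132 on the minus strand and that of Tagap at chr17:7925750-7925999 on the plus strand.
Nim1k: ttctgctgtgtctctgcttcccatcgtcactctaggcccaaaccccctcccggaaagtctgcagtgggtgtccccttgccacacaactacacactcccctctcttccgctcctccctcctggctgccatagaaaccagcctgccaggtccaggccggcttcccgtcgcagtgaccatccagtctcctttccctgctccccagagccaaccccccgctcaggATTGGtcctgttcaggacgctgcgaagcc
Tagap: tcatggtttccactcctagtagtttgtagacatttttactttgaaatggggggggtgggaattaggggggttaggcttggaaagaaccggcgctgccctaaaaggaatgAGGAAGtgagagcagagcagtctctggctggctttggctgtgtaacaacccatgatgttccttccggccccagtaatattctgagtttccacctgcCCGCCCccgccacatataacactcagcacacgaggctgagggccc

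Both strands were searched, and no 2 matches overlapped in these windows. The window of Nim1k held 1 CCAAT box (CCAAT, read here as ATTGG on the other strand) beginning 29 bases before the start, a motif found in 33.8% of all 32851 promoters. The window of Tagap held 1 AGGAAG, the only form of the ETS site searched, beginning 141 bases before the start. It also held 1 GC box (GGGCGG, on the other strand) beginning 45 bases before the start. These motifs were found in 29.5% and 32.7% of all promoters. The TATA box (TATAAA), the E-box (CACGTG), the AP-1 site (TGANTCA) and the cAMP response element (TGACGTCA) had no match in either window and occur in 12.4%, 6.02%, 6.75% and 1.55% of all promoters. G and C made up 62.0% of the window of Nim1k and 52.8% of that of Tagap, against a median of 52.4% over all promoters. The windows held 9 and 6 CpG dinucleotides against a median of 6. The 2 windows therefore shared no motif in the spelling searched, and other or shorter forms of these motifs were not searched. A match is a description of letters and not evidence of binding.

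Nim1k was measured by probe CUST_299_PI426409190, designed on transcript NM_175538. Its processed signal (spot brightness after background subtraction) ran from 21.3 to 190 intensity units, beside a local background of 25 to 34.5. In WT the signal was 38.1 and 37.5. At 1 month it was 24.4 in replicate 1 and 56.6 and 56.0 in replicates 2 and 3. At 3 months it was 21.9 in replicate 1, the only array on which the spot was not well above background, and 33.1 and 35.4 in the others.

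At 6 months the signal of Nim1k was 21.3 in replicate 1 and 63.6 and 71.3 in replicates 2 and 3. At 9 months it was 165, 190 and 176. The 3 arrays at 9 months thus stood well above all 11 others, whose highest value was 71.3. The arrays at 1 and 6 months lay on both sides of WT, and the 3 arrays at 3 months lay below both WT arrays. Within 1, 3 and 6 months replicate 1 lay below replicates 2 and 3 each time. The error that the scanner software gives was 10.2% to 22.8% of the signal, with the 22.8% on replicate 1 at 3 months.

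**Figure D1:**
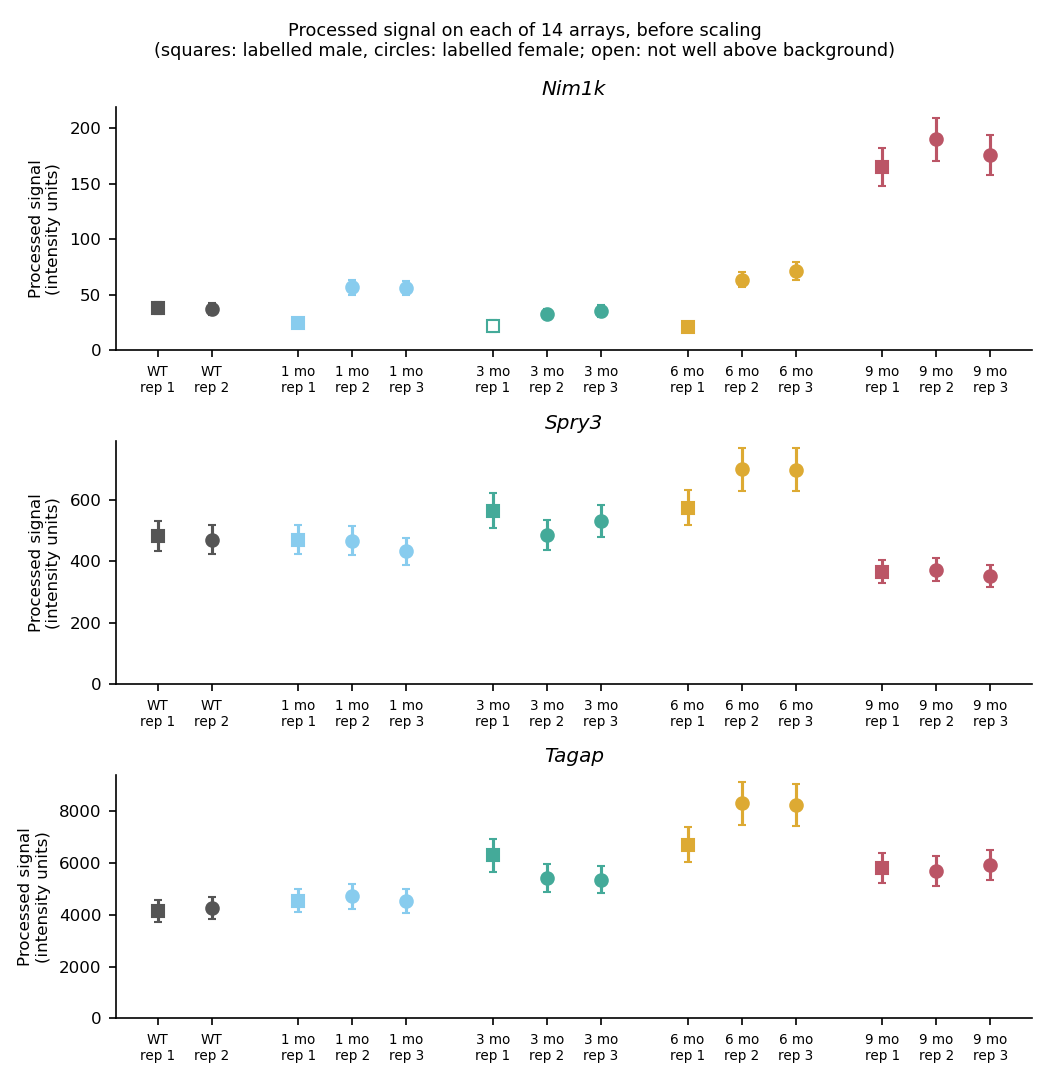
Processed signal of the Nim1k, Spry3 and Tagap probes on each of the 14 arrays, in linear intensity units before any scaling between arrays (bars, error of the scanner software; squares, labelled male; circles, labelled female; open symbol, not well above background). Nim1k lay at 165 to 190 on the 3 arrays at 9 months and at 71.3 or below on the others, Spry3 was lowest at 9 months and highest at 6 months, and Tagap reached 8295 at 6 months.

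For comparison between arrays the log2 signal was scaled by subtracting each array's 75th percentile, so that 0 marks a spot at that percentile. On this scale Nim1k was -3.42 ± 0.022 (SD, n = 2) in WT, -3.70 ± 0.82 (SD, n = 2) at 1 month, -3.85 ± 0.40 (SD, n = 2) at 3 months and -3.73 ± 0.93 (SD, n = 2) at 6 months. At 9 months it was -1.54 ± 0.049 (SD, n = 3). The difference of 9 months from WT was 1.88 (SE 0.44), a 3.69-fold higher signal, and that of 9 from 6 months was 2.19 (SE 0.44), or 4.55-fold. Each SE comes from 1 fit over all groups, so it carries the larger spread at 1, 3 and 6 months. In order of the means, 3, 6 and 1 month and WT followed each other with steps of 0.12, 0.03 and 0.28 and with samples that overlapped at each of these steps, and the last step, from WT to 9 months, had no overlap. Across more than 1 step, both samples at 3 months, at -4.13 and -3.57, lay below both WT samples, at -3.41 and -3.44.

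With normexp background correction, which adds a fixed offset of 50 to each signal before the logarithm, the difference of Nim1k between 9 months and WT was 0.54 (SE 0.18) in place of 1.88, and that between 9 and 6 months was 1.11 in place of 2.19, which was also 1.53 without replicate 1 and 2.85 without replicate 2 at 6 months. The spread at 1 and 6 months rested on single samples, since the difference from WT at 1 month was 0.30 without replicate 1 and -0.85 without replicate 2, and at 6 months 0.36 and -0.96. At 3 months it was -0.43 (SE 0.48) with both, -0.15 without replicate 1 and -0.71 without replicate 2, and normexp gave -0.60 at 1 month and -0.58 at 6 months.

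Spry3 was measured by probe CUST_311_PI426409190, designed on transcript NM_001030293, and was well above background on all 14 arrays with a software error of at most 10.1%. In WT its processed signal was 483 and 470. At 1 month it was 471, 467 and 432, close to WT before scaling. At 3 months it was 565, 486 and 532.

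The signal of Spry3 at 6 months was 575, 700 and 699, the highest of the series. At 9 months it was 366, 373 and 352, below every other array. The 6-month arrays in which Spry3 was brightest, replicates 2 and 3, also had the highest 75th percentiles of all arrays, 562 and 566 intensity units, and a local background at this spot of 52 and 54 against 22 to 29 on the other arrays, whose part in the value was not tested. Scaling therefore brought the 6-month samples together, and the scaled levels are the ones compared here.

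After scaling, Spry3 was 0.23 ± 0.035 (SD, n = 2) in WT, -0.064 ± 0.084 (SD, n = 2) at 1 month, 0.44 ± 0.16 (SD, n = 2) at 3 months and 0.34 ± 0.042 (SD, n = 2) at 6 months. It was -0.50 ± 0.075 (SD, n = 3) at 9 months. The order of the means ran from 9 months over 1 month, WT and 6 months to 3 months. Only 6 and 3 months, the top of that order, overlapped in their samples. The difference of 6 from 3 months was -0.10 (SE 0.10) and turned to 0.19 with reference gene scaling and to 0.015 without replicate 1 at 3 months, so the order of these ages is not settled. Against WT the difference was -0.30 (SE 0.10) at 1 month, 0.21 (SE 0.10) at 3 months, 0.11 (SE 0.10) at 6 months and -0.73 (SE 0.09) at 9 months. From 6 to 9 months the level differed by -0.84 (SE 0.09), a 1.78-fold lower signal, which was more than any other step of age.

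The difference of Spry3 at 3 months was 0.09 without replicate 1 at 3 months, 0.32 without replicate 2 at 3 months and 0.11 with normexp, which gave 0.041 at 6 months. Scaled on the median of the repeated reference genes instead, which moved the median of all features by 0.16 at 1 month and 0.37 at 6 months, Spry3 was -0.14 at 1 month and 0.47 at 6 months against WT.

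Tagap was measured by probe CUST_297_PI426409190, designed on transcript NM_145968. A related gene that shares a synonym with it, Tagap1, lies on the same chromosome in the reference table, and whether the probe also reads it was not tested. The spot was bright and well above background on all 14 arrays. In WT the processed signal was 4146 and 4259. At 1 month it was 4542, 4706 and 4527, and at 3 months 6291, 5416 and 5359.

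At 6 months the signal of Tagap was 6697, 8295 and 8231. At 9 months it was 5817, 5692 and 5920. Before scaling, every array at 3, 6 and 9 months was brighter than every array of WT and 1 month, and the 6-month arrays were brightest.

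After scaling, Tagap was 3.37 ± 0.021 (SD, n = 2) in WT, 3.25 ± 0.019 (SD, n = 2) at 1 month, 3.88 ± 0.22 (SD, n = 2) at 3 months, 3.89 ± 0.026 (SD, n = 2) at 6 months and 3.50 ± 0.075 (SD, n = 3) at 9 months. The lowest means were at 1 month and in WT, then came 9 months, and 3 and 6 months were highest. The 3-month and 6-month samples overlapped and their means differed by 0.0097 (SE 0.11), which was -0.14 without replicate 2 at 3 months and 0.30 with reference gene scaling, whereas the samples of all other neighbours in this order lay apart. Against WT Tagap was higher by 0.51 (SE 0.11) at 3 months, 0.52 (SE 0.11) at 6 months and 0.13 (SE 0.10) at 9 months. These are 1.42-fold, 1.43-fold and 1.09-fold. From 1 to 3 months it was higher by 0.63 (SE 0.11), or 1.55-fold, and from 6 to 9 months the difference was -0.39 (SE 0.10), or -0.66 with reference gene scaling.

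The difference of Tagap at 1 month from WT was -0.12 (SE 0.11) and turned to 0.04 when arrays were scaled on the reference genes, with -0.0083 by normexp and -0.0066 by quantile normalization. With the reference genes the difference at 6 months was 0.88 in place of 0.52 and at 9 months 0.22 in place of 0.13. At 3 months the 2 samples stood at 4.03 and 3.73, and the difference from WT was 0.35 without replicate 1 and 0.66 without replicate 2 at 3 months.

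**Figure D2:**
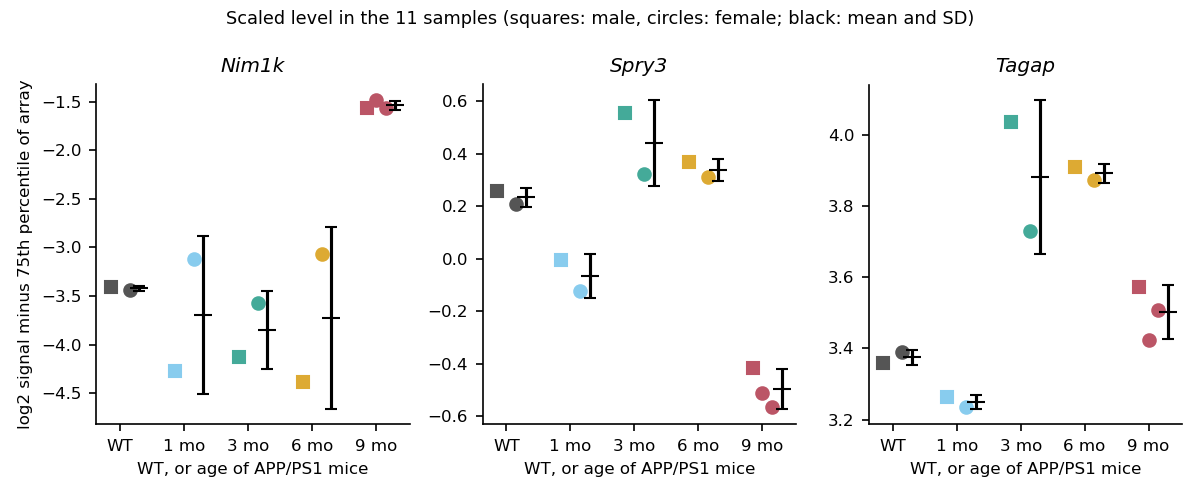
Scaled level (log2 signal minus the array's 75th percentile, each gene on its own axis) in the 11 samples, with squares for samples labelled male, circles for samples labelled female, and the mean with its SD in black beside each group. Nim1k was highest at 9 months, at -1.54 ± 0.049, and its samples at 3 months lay below both WT samples, Spry3 was lowest at 9 months, and Tagap was highest at 3 and 6 months.

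The steps between ages can be set side by side for the 3 genes. From 1 to 3 months both Spry3 and Tagap were higher in every sample, by 0.50 (SE 0.10) and 0.63 (SE 0.11), while Nim1k overlapped. From 3 to 6 months the samples of all 3 genes overlapped. From 6 to 9 months Nim1k was higher in every sample and Spry3 and Tagap were lower in every sample.

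Groups of 2 or 3 samples often fail to overlap, and the share of all 48298 features whose samples did so is the background for these counts. At 1 month 2 of 3 genes, Spry3 and Tagap, were lower than WT in every sample, against 26.5% of all features, and none was higher in every sample, against 30%. Before scaling, Tagap was instead brighter than WT on every array at 1 month, and its scaled difference was 0.037 with the reference genes. At 3 months Spry3 and Tagap were higher and Nim1k lower in every sample, against 30.4% and 27.4% of features. Before near-identical arrays were averaged, Spry3 in replicate 2 at 3 months stood at 0.2561, below WT replicate 1 at 0.2588. The Nim1k samples at 3 months include the spot not well above background. At 6 months Spry3 and Tagap were higher, against 35.7%, and at 9 months Nim1k and Tagap were higher and Spry3 lower, against 32.8% and 28.1%. For 3 against 1 month the background of higher features was 30.9%. For 6 against 3 months, where no gene of the 3 was apart, it was 28.9% higher and 22.8% lower. For 9 against 6 months it was 22.4% higher and 29% lower. The ages share the same 2 WT samples and the groups chose the genes, so nothing is read from these counts beyond the levels themselves.

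The scan settings allow part of this to be seen within 1 setting. On the 8 arrays scanned at 356 V, Tagap differed from WT by -0.11 (SE 0.12) at 1 month, 0.51 (SE 0.12) at 3 months and 0.52 (SE 0.12) at 6 months. Spry3 differed there by -0.27 (SE 0.12), 0.17 (SE 0.12) and 0.11 (SE 0.12) at 1, 3 and 6 months. Nim1k differed there by -0.27, -0.46 and -0.34 (SE 0.54 each). On the 3 arrays scanned at 355 V, 1 each at 1, 3 and 6 months, Tagap was 0.51 higher and Spry3 0.57 higher at 3 months than at 1 month. For Nim1k this difference was -0.39. These 3 arrays are replicate 3 of their groups, near-identical to replicate 2 at 356 V. They were already averaged into the levels above, so they give no separate support. No such value exists for 9 months.

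**Figure D3:**
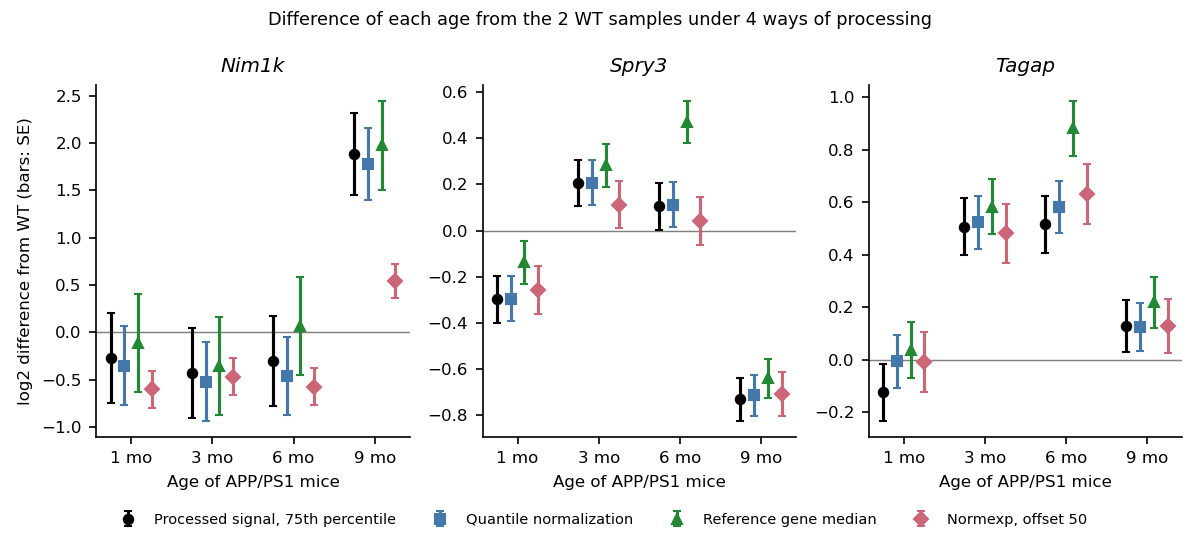
Difference in mean log2 level of each age from the 2 WT samples (bars, SE of the fit) for the processed signal scaled on the 75th percentile and for 3 other ways of processing. The values of Spry3 and Tagap kept their sign at 3, 6 and 9 months in all 4, Nim1k at 9 months was 0.54 with normexp against 1.88, and Tagap at 1 month and Nim1k at 6 months turned to 0.04 and 0.06 with the reference gene scaling.

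The labels give 1 male in each group, called replicate 1 here, and name the others as female, whereas the series' design text speaks of male mice, and the choice of the genes did not use this difference. It was therefore tested with limma over all features, with group as a block, on 5 male and 6 female samples. Nim1k stood at -4.27 in the male and -3.12 in the female sample at 1 month. The pair stood at -4.13 and -3.57 at 3 months and at -4.39 and -3.07 at 6 months. In WT it stood at -3.41 and -3.44, and at 9 months the male sample was at -1.57 and the females averaged -1.52. Nim1k was thus lower in the male sample than in the female mean in 4 of 5 groups, by a factor of 2.22 at 1 month, 2.50 at 6 months and 1.03 at 9 months. The male signals at 1 and 6 months were 24.4 and 21.3 intensity units beside a local background of 28 and 26. The factors at 1 and 6 months therefore rest on dim spots. At 9 months female replicate 3 also stood at -1.57. At 3 months the male spot was not well above background, so no factor is given there.

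Over all groups Nim1k differed by -0.57 (SE 0.22, 95% interval -1.10 to -0.048) in male against female samples, with an adjusted p of 0.611 by limma. With normexp this difference of Nim1k was -0.26 (SE 0.08). Spry3 was higher in the male sample of all 5 groups, by 0.049 to 0.23, with an overall difference of 0.12 (SE 0.05, 95% interval 0.0029 to 0.23) and a limma adjusted p of 0.616. Between single arrays of a group, these Spry3 differences were 0.24 to 1.47 times the combined error of the scanner software. Tagap differed by 0.09 (SE 0.06, 95% interval -0.055 to 0.24, limma adjusted p = 0.69) and was higher in the male sample of 4 groups. Over 21 alternatives the difference ran from 0.034 to 0.13 for Spry3 and from 0.0084 to 0.12 for Tagap. Both were lowest with reference gene scaling. None of the 3 passed, as 0 of 48298 features did (0%) by limma after Benjamini-Hochberg adjustment, while 3887 features had an unadjusted limma p below 0.05. A p above the threshold does not show equal levels. With the separate arrays in place of averaged ones, limma called 278 features and none of the 3 genes. That count treats the near-identical arrays, all labelled female, as separate samples, so it does not rest on independent samples. A list of 4 immune genes that the array names, Ccl21b, Ccl21c, Ccl28 and B2m, was measured as well. Since 0 of all features passed the main test, 0 of these 4 follows from that and tells nothing more about them.

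No probe carries the symbol Xist. Of 23 named probes of Y-linked genes, 12 were kept, and of these 0 passed the limma test between male and female samples, with 2 at an unadjusted p below 0.05. These are mostly genes of multicopy families known from the testis, 4 of the 23 were well above background on all 14 arrays and 7 on none, so the sex labels could not be checked here. All arrays scanned at 355 V are labelled female.

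Among the 62 kept genes with an approved-type symbol, the profile of each of the 3 genes over the 11 samples was set against those of the other 61. Nim1k was most like Ccl21b (Pearson's r = 0.94), Ccl21c (0.93) and Ccl28 (0.89), which encode chemokines, the first 2 being near-identical copies whose probes may read the same transcripts. The r of these pairs was 0.52, 0.45 and 0.14 over the 8 samples without 9 months. Tbp, the TATA-binding protein and a common reference gene, was least like Nim1k, at -0.94 and -0.78 without 9 months.

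Spry3 was most like Vmn1r241, a pheromone receptor gene (0.86), Tbp (0.83) and Tuba1b, an alpha-tubulin (0.77). Without 9 months these values were 0.27, 0.27 and 0.92, so that of these 3 genes, ranked over all 11 samples, only the likeness of Tuba1b did not rest on the oldest group. The lowest value was with Ccl21b, at -0.91, and -0.63 without 9 months. Tagap was most like Taf1a, a subunit of the RNA polymerase I initiation factor (0.89), H2ac18, a histone H2A gene (0.85), and Tuba1b (0.71), with 0.90, 0.85 and 0.72 without 9 months, and least like Nlrp4g, at -0.67. Between the genes themselves r was -0.87 for Nim1k and Spry3, -0.27 for Nim1k and Tagap and 0.55 for Spry3 and Tagap, and -0.31, -0.30 and 0.88 without 9 months. These are descriptions over samples that share arrays, scaling and group structure, and no p is given.

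**Figure D4:**
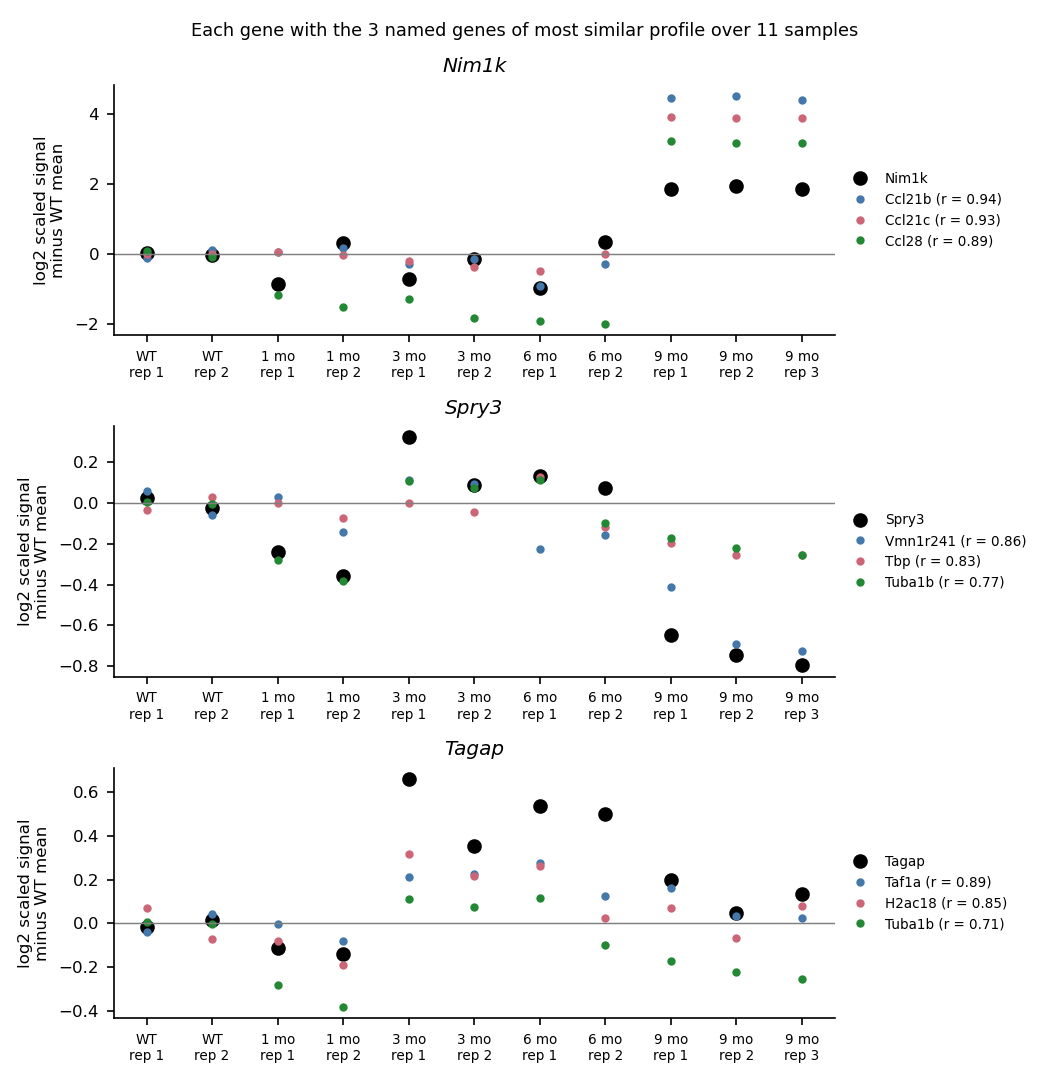
Scaled log2 signal of Nim1k, Spry3 and Tagap (large black points) in each of the 11 samples, minus the mean of the 2 WT samples, with the 3 named genes of highest Pearson's r in colour. The chemokine genes beside Nim1k stood 3.17 to 4.52 above WT in the 3 samples at 9 months and at most 0.18 above it in the others, and Taf1a lay 0.13 to 0.28 above WT at 3 and 6 months, where Tagap lay 0.35 to 0.66 above it.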

How the data were processed

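Total RNA of mouse brain was hybridised to one-colour Agilent arrays, and the intensity values deposited came from the scanner software of the authors, Feature Extraction 10.7.1.1, per the submitters' processing notes. The processed signal is spot intensity after background subtraction, with a spatial detrending fit recorded per the file headers. Flags of the deposited files (other values, 0 or 1) mark spots well above background and outliers. The genome build is not given in the sources used here. Each of the 14 columns of the deposited value table with a scanner file equalled local background intensity within 0.001 in all 62513 rows. Its column medians were 27.9 to 36.8, so these columns were not used as expression. The third WT sample has a column of 56000 rows there and no scanner file to set it against, and it entered no comparison.

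Control spots (among them 1200 spots of 20 negative probes) and 134 non-uniform single-spot probes were left out. The log2 signal minus each array's 75th percentile was averaged over spots of a probe, and a probe was kept if at least 3 arrays had it well above background. WT had 2 arrays, so a probe seen in WT alone could not be kept. Arrays of a group whose negative spots correlated above 0.5 were averaged. Differences came from 1 limma 3.58.1 fit (R 4.3.3) over all groups, which gave standard errors. Sex was tested by limma with Benjamini-Hochberg adjustment at 0.05. The fits were tested on simulated data. Named genes were the 3 members and, for each, the 3 most and the 1 least correlated genes, by the rule set for this report. The members, lists and settings were chosen with earlier results of these data known. The normexp alternative used spot medians. Symbols came from RefSeq transcripts (GRCm38.p6, used for names), and 115 probes matched 111 symbols. Files were read with Python 3.11.15. A check of the genotype labels is not reported here.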

Additional observations from a re-analysis of the deposited data

Results flagged for a closer look

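Some ages lay on opposite sides of WT in every sample, and the difference between those effects was not tested, since the levels chose the genes and the ages share the same WT samples. Among all 48298 features, 23.2% to 35.7% lay above, or below, both WT samples in every sample of an age. The share on opposite sides of WT at 2 ages was not counted, so the cases below have no background to be read against. For Nim1k this held for 9 against 3 months, which differed by 2.31 on the log2 scale, with the spot of replicate 1 at 3 months not well above background. For Spry3 it held for 3 against 1 month (0.50), 6 against 1 month (0.40), 9 against 3 months (-0.94) and 9 against 6 months (-0.84). For Tagap it held for 3, 6 and 9 months against 1 month, with 0.63, 0.64 and 0.25. The place of Tagap at 1 month relative to WT turned with the reference gene scaling, and before scaling every array at 1 month was brighter than both WT arrays. For Spry3 at 3 months, replicate 2 lay below WT replicate 1 before near-identical arrays were averaged.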

How the results depend on the processing

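With reference gene scaling Tagap at 1 month turned to 0.037, and Tagap at 6 months was 0.88, Spry3 -0.14, 0.47 and -0.64 at 1, 6 and 9 months against WT; this scaling shifts all features alike. With normexp, Nim1k at 9 months was 0.54, Spry3 at 3 months 0.11, Tagap at 1 month -0.0083 and at 6 months 0.63, and with quantile normalization Tagap at 1 month was -0.0066; the cause was not tested. Leaving out 1 sample gave 0.35 to 0.66 for Tagap at 3 months, 0.090 to 0.32 for Spry3 at 3 months, -0.85 to 0.30 for Nim1k at 1 month and -0.96 to 0.36 at 6 months. The count of 0 features between male and female was 278 with 14 arrays as separate samples, 835 with scan setting as a random block over them, and 0 to 290 without 1 sample, 290 without either WT replicate. None of the 3 genes was called under any of 21 alternatives, with adjusted p from 0.0751 to 0.867 for Nim1k, 0.116 to 0.867 for Spry3 and 0.211 to 0.98 for Tagap by limma. The counts of 278 and 835 treat near-identical arrays, all labelled female, as separate samples, so they do not rest on independent samples. The Nim1k spot was well above background on 13 of 14 arrays, which limits its values at 3 months. No paired analysis was possible because every title carries replicate number 1, so the labels pair no samples. The values at the scan setting of WT alone were chosen after seeing the data.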
